A study of Mus musculus with 34 samples.

Results

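The genes described here are 34 members of the interferon response and of class I antigen presentation, followed across mouse testis, sorted cells, cultured cells and staged seminiferous tubules. The members were given as a list, and fall into roles: virus sensors (Ddx58, Ifih1, Dhx58, Zbp1), transcription factors (Irf1, Irf7, Irf9, Stat2), antiviral effectors, regulators (Usp18, Trim25), the chemokine Cxcl10, guanylate-binding proteins (Gbp2, Gbp3) and antigen presentation genes. For each, the probe with the highest signal that mapped to the gene's symbol was used. Of the 34 members, 30 had a matching probe among the 33123 gene names on the array, and Mx1, Mx2, Xaf1 and H2-K1 were not analysed here. The H2-D1 probe is uncertain, because class I genes are near-identical and a probe can bind RNA of several of them.

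The study measured RNA on 34 one-colour Agilent arrays in 17 groups of 2 samples, which the design text calls biological duplicates. The mice were C57BL6/j animals of 6 to 8 weeks. The groups were whole testes, wild-type cells labelled Sertoli and sorted by FACS, the same sort from Nanos3 knockout testes, and wild-type primary Sertoli cells in culture, given either vehicle or retinoic acid (24 h; the labels give 1 mM, a unit that was not checked here and may be an error). The other 12 groups were seminiferous tubules from 4 stage groups of the seminiferous cycle (I-III, then IV-VI, then VII-VIII, then IX-XII), either untreated or taken 5 days after a lentivirus was injected into the testis. One virus carried Venus, a yellow fluorescent protein, and the other carried dnRARa, by its name a retinoic acid receptor alpha altered to act as a dominant negative. The titles of 1 stage group read VI-VIII where the source names read VII-VIII, and the latter is used. The sources used here do not give the promoter in the viruses, the cell types they entered, the sorting gate or how many animals went into a sample.

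Cells detect viral RNA through RIG-I (Ddx58) and MDA5 (Ifih1), helicases that lead to production of type I interferon. Interferon binds its receptor, JAK kinases are activated, and STAT2 and IRF9 enter the nucleus in a complex that binds the interferon-stimulated response element (ISRE) in promoters of effector genes such as Isg15 and the Ifit genes. Interferon gamma acts at the gamma-activated site (GAS) and raises the immunoproteasome subunits Psmb8 and Psmb9, the peptide transporter Tap1 and Tap2, and class I molecules with their light chain B2m. Usp18 damps the response, and Irf7 amplifies it. In the testis, Sertoli cells, Leydig cells and macrophages are known to be able to mount it, and the germ cells behind the Sertoli cell barrier are held in an immune-privileged place.

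Promoter windows were available for 26 of the 34 members in the RefSeq table for GRCm38.p6, each from 250 bases before to 50 bases after a gene start. The ISRE core was searched as GAAANNGAAA and the GAS core as TTCNNNGAA, on both strands. The ISRE core lay in the window of 12 of 26 members (46.2%), namely Ddx58, Ifih1, Stat2, Isg15, Ifit1, Ifit3, Rsad2, Bst2, Cxcl10, Gbp2, Gbp3 and B2m, and in 3.99% of all 27025 genes in the table. The GAS core lay in 4 of 26 (15.4%), namely Irf1, Ifit2, Bst2 and Psmb8, against 9.55% of all genes. Retinoic acid response elements of the DR5 and DR2 types were matched in none of the 26, against 0.115% and 0.311% of all genes. A match is a run of letters, not a measured binding site, and no match says only that these letters are not in the window. Below are the 200 bases before the start of 5 members that the results turn on, 5′ to 3′ on the gene's strand, with matches to either core in capitals. Isg15 (chr4:156200819-156201018, minus strand) is shown for its 3 overlapping ISRE cores, which begin 78, 72 and 66 bases before the start. Ifit1 (chr19:34640689-34640888, plus strand) has 2 ISRE cores, which begin 104 and 85 bases before it. Bst2 (chr8:71537473-71537672, minus strand) has 2 ISRE cores, 130 and 124 bases before it, the first overlapping a GAS core that begins at 136. Tap1 (chr17:34187356-34187555, plus strand) and Oasl2 (chr5:114896734-114896933, plus strand) have neither core and are shown because the retinoic acid and tubule results below turn on them and on Psmb9. Tap1 and Psmb9 are divergent neighbours whose starts lie 226 bases apart, so the Tap1 stretch lies between both starts.
Isg15: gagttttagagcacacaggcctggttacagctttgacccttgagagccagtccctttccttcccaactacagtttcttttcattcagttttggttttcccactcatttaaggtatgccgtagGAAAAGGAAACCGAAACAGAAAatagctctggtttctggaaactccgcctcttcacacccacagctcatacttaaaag
Ifit1: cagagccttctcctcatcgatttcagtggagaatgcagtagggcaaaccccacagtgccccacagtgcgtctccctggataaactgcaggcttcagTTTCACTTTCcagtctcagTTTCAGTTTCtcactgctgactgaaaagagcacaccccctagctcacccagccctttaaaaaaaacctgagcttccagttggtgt
Bst2: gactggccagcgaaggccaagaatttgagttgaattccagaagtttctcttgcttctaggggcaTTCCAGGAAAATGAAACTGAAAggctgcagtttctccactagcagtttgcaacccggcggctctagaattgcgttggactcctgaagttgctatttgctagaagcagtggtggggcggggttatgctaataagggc
Tap1: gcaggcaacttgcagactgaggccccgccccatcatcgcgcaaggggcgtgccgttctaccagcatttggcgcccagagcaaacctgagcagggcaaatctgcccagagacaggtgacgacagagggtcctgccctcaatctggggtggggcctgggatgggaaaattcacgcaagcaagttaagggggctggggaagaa
Oasl2: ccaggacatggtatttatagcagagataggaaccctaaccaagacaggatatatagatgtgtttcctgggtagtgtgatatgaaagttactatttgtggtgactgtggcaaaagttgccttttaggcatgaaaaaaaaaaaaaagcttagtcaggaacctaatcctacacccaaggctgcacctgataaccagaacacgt

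Levels are log2 intensity minus the array's 75th percentile, so 0 is the 75th percentile of that array, and a difference of 1 is a doubling relative to it. Agilent's software called between 54.89% and 74.42% of spots well above background, depending on the array. Of the 30 measured members, 25 were well above background in whole testes, 29 or 30 in sorted cells, 25 to 28 in culture, 19 to 22 in untreated tubules, 25 or 26 in Venus tubules and 21 to 27 in dnRARa tubules. Replicates correlated at between 0.9609 (sorted Nanos3 knockout cells) and 0.9986 (cells with retinoic acid) across genes. There were 10 slides and 5 scan days. The sort comparison and the retinoic acid comparison each lay on 1 slide, and replicates of Venus and dnRARa shared scan days. Untreated and injected tubules lay on different slides and were scanned on different days, as did sorted and cultured cells, and the knockout cells had a slide of their own. In those comparisons the slide and the group cannot be told apart.

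The label of the sorted wild-type cells was checked against marker genes. The summed level of 13 Sertoli markers, on a scale where the 75th percentile is 100, was 6390 to 6480 in whole testes, 10600 to 14200 in sorted wild-type cells and 17100 to 17700 in cultured cells. The summed level of 9 Leydig cell markers rose further, from 20600 to 20900 in testes to 203000 to 210000 in sorted cells, and was 1570 to 1640 in culture. Spermatid markers fell from 204000 to 222000 to 44500 to 70400 in the sort, and were at 56.1 to 61.1 in culture. The summed level of 7 spermatocyte markers was 13400 to 14300 in testes, 461 to 582 in the sort and 902 to 914 in culture. The Leydig marker level in the sort was above that in whole testes by more than the Sertoli marker level was, and this population is called the sorted cells below rather than Sertoli cells.

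**Figure D1:**
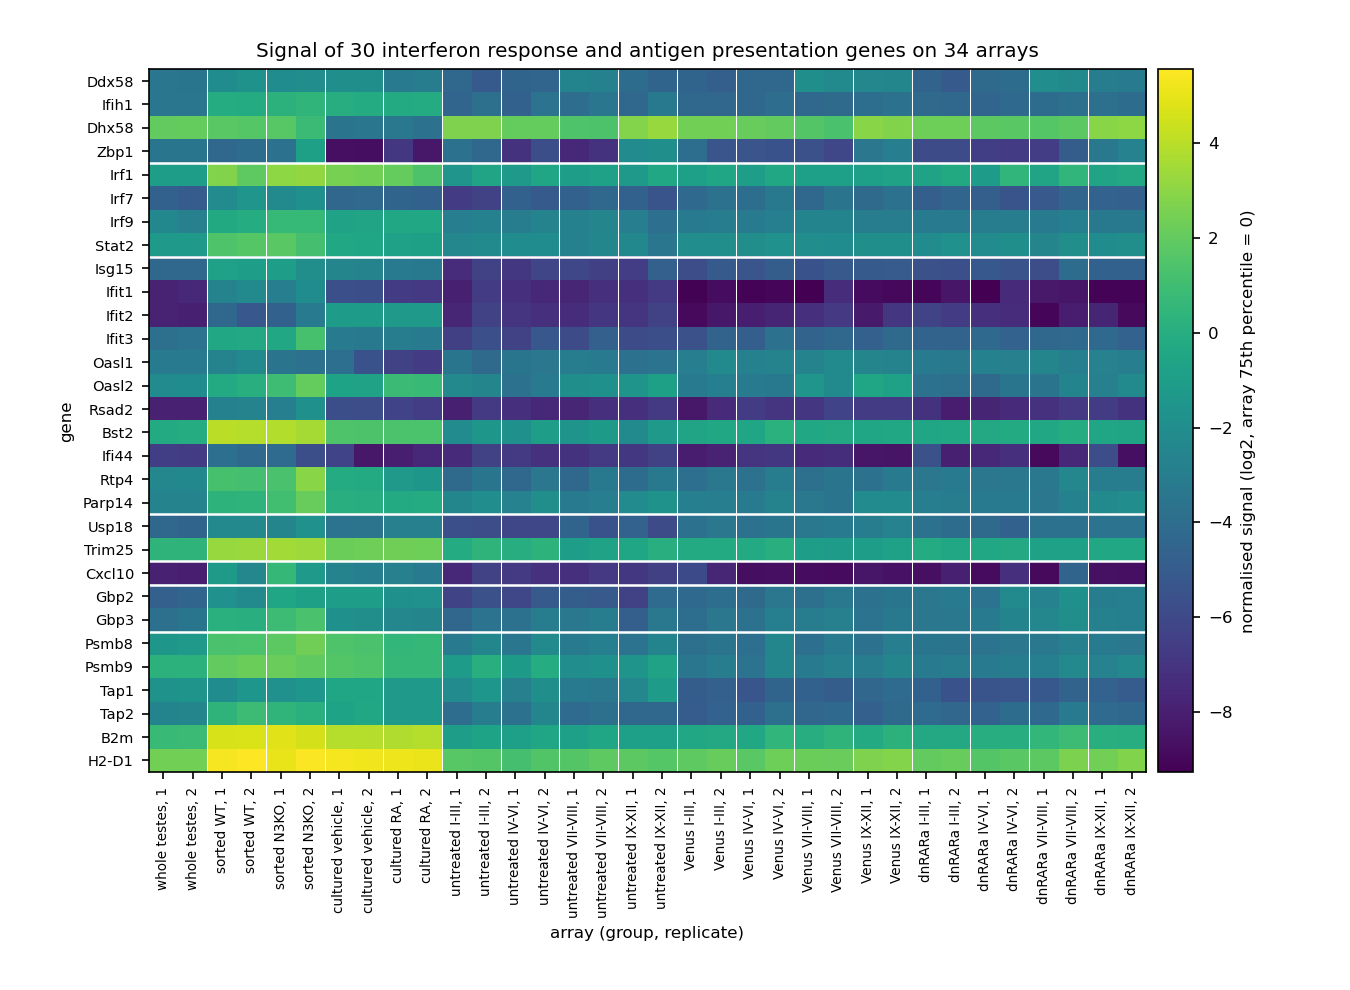
Heat map of the 30 measured members (down the side, white lines between roles) on the 34 arrays (along the bottom, by group and replicate); colour is the log2 intensity minus the array's 75th percentile. Most members are brightest in the 4 arrays of sorted cells, and Dhx58 and Zbp1 are darkest in culture.

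Across the 17 groups the span between the highest and the lowest group mean was widest for Cxcl10, a chemokine that draws T cells, at 8.49 on the log2 scale. It was 7.49 for Ifit2, 6.71 for Ifit1, 6.69 for Zbp1 and 6.54 for Dhx58. The lowest groups of Cxcl10, Ifit1, Ifit2 and Zbp1 were not well above background, so their spans rest on a floor. The highest group was sorted wild-type or sorted knockout cells for 25 of the 30 members. The exceptions were Ifit2 and Tap1, highest in culture with vehicle, Oasl1, highest in Venus tubules at VII-VIII, and Dhx58 and Zbp1, highest in untreated tubules at IX-XII. Dhx58 encodes LGP2, a helicase related to RIG-I without its signalling domain, and Zbp1 senses left-handed nucleic acid.

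The first comparison asks which of these genes are more abundant in the sorted cells than in the testis as a whole. Interferon and antigen presentation genes were higher in the sorted cells almost throughout: 26 of the 30 members tested were higher and none lower, where 78.9% of all genes tested passed, 38.8% higher and 40.1% lower. The median member difference was 3.0 on the log2 scale, against -0.03 over all genes tested. The sorted and testis samples did not overlap for 29 members, and for 92.4% of all genes. In bulk RNA, fewer cells of a type and less RNA per cell cannot be told apart, and 5 of the 26 members passed the detection filter only through the sorted cells, so that they had to differ. Those 5 are Cxcl10, Ifit1, Ifit2, Rsad2 and Ifi44.

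Bst2, or tetherin, which holds budding virus at the membrane, was measured at -0.18 and -0.10 in the testis samples and at 4.03 and 3.89 in the sorted cells. The samples of the groups lay far apart, at a 17.1-fold difference (log2 4.10, SE 0.12, adjusted p = 1.3e-06, limma). B2m, the light chain of class I molecules, was at 0.80 and 0.82 in testes and at 4.68 and 4.70 in the sort, a difference of 3.88 (SE 0.12, adjusted p = 1.3e-06). Trim25, the ubiquitin ligase that acts on RIG-I, was at 0.38 and 0.37 against 3.28 and 3.34. These 3 genes were bright on every array, so detection does not set their differences. A second probe, well above background in both groups, rose by 3.98 for B2m and by 1.2 for Trim25.

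Of the 5 members below detection in testes and called, Cxcl10, Ifit1 and Rsad2 had the largest fitted differences of all members. Cxcl10 was at -7.89 and -8.02 in testes, not well above background, and at -1.18 and -2.42 in the sort, at least 15.4-fold higher (adjusted p = 7.72e-05). Ifit1, which binds viral RNA ends, was at -7.84 and -7.56 against -2.61 and -2.22, at least 10-fold higher. Rsad2, or viperin, was at -7.88 and -7.89 against -2.74 and -2.63, at least 8.35-fold higher. The bounds set the sorted level against the dimmest signal that counts as detected on the testis arrays. Ifi44 was at least 3.27-fold and Ifit2 at least 2-fold higher by the same rule.

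The transcription factors were all higher in the sort. Irf1 rose by 3.29, Irf7 by 2.99, Stat2 by 2.84 and Irf9 by 2.41. Irf7 was at -4.65 and -4.95 in testes and at -2.12 and -1.51 in the sort (SE 0.23, adjusted p = 2.27e-05). Among effectors detected in both, Rtp4, which inhibits flavivirus replication, rose by 3.56, Isg15, a ubiquitin-like modifier, by 3.37, Ifit3 by 3.32, Parp14 by 3.01 and Oasl2 by 2.02. Of the antigen presentation genes, Tap2 rose by 3.18, H2-D1 by 3.06, Psmb8 by 2.70 and Psmb9 by 1.88. The guanylate-binding protein Gbp3 rose by 3.78 and Gbp2 by 2.6, and the deubiquitinase-like Usp18, which removes Isg15 from proteins, rose by 2.12.

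The sensors and the transporter split. Ifih1 was at -3.45 and -3.42 in testes and at -0.11 and -0.14 in the sort, a difference of 3.31 (SE 0.11, adjusted p = 1.39e-06), and Ddx58 rose by 1.58 (SE 0.14, adjusted p = 4.04e-05). A second Ddx58 probe, well above background on both arrays of each group, rose by 0.38. Dhx58 was high in both, at 2.02 and 2.05 in testes and 1.75 and 1.64 in the sort, and did not pass the test (-0.34, 95% interval -0.99 to 0.32, adjusted p = 0.292). Zbp1 was at -3.50 and -3.53 against -4.28 and -4.01 (-0.62, interval -2.75 to 1.5, adjusted p = 0.538). Tap1, the partner of Tap2 in the peptide transporter, overlapped between the groups, at -1.65 and -1.61 in testes and -2.03 and -1.47 in the sort (-0.12, interval -0.58 to 0.34, adjusted p = 0.588). Oasl1, at 0.76 (adjusted p = 0.179), was the other member without a call.

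The rest of the pathway was read from lists of genes that are no members. Of 14 interferon receptors, kinases and STATs, 11 were higher and 2 lower in the sort, with the receptor chain Ifnar2 at 4.04. Of 29 other interferon-stimulated genes tested, 22 were higher and 3 lower, with Ifi27 at 3.72 and Ifi35 at 3.41. All 9 of the called genes among 10 other interferon-inducible GTPases were higher (Iigp1 at 4.77), as were all 10 called among 12 other class I genes (Psme1 at 3.93, Erap1 at 3.49). Class II genes went the other way, with 4 of 6 lower and none higher (H2-Eb1 at -2.07, H2-DMb1 at -1.59). Of the interferon genes 1, Ifna1, was bright enough to be tested, and it did not pass (-0.94; 0 at an unadjusted p under 0.05, limma).

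Markers of other cells moved with these genes. All 9 Leydig cell markers were higher in the sort (median difference 4.47), as were 9 of 10 endothelial markers (summed level 344 to 345 in testes, 2720 to 3970 in the sort) and 6 of 13 macrophage markers (1360 to 1490 against 3580 to 7330). Of 14 Sertoli markers, 11 were higher, with a median of 0.84. All 8 spermatid markers were lower. The part of each cell type in the members' differences was not tested.

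**Figure D2:**
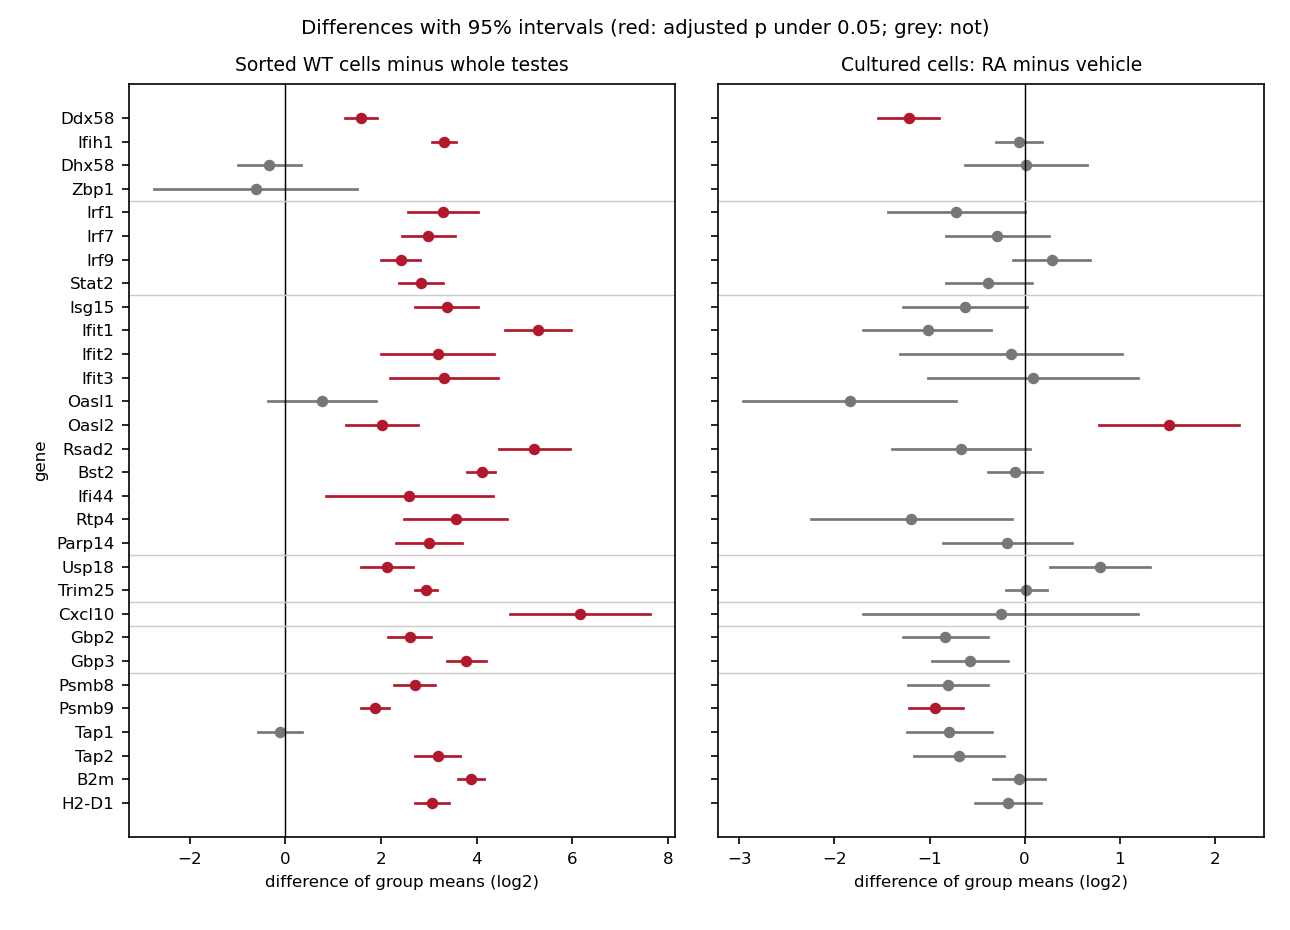
Fitted log2 difference of each member between sorted cells and whole testes, and between cells with retinoic acid and with vehicle, with 95% confidence intervals; red marks an adjusted p under 0.05, grey the other members tested, and Zbp1 and Ifi44 have no point on the right because they were not tested there. In the sort 26 members lie to the right of 0 past the threshold, and with retinoic acid 1 lies to the right and 2 to the left.

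Retinoic acid, the active form of vitamin A, binds nuclear receptors that turn on Cyp26a1, Dhrs3 and Stra8 in the testis, and in the cultured cells these rose by 9.44, 5.21 and 3.91 on the log2 scale. Cyp26a1 was not well above background with vehicle. All 8 spermatocyte markers were well above background in the cultured cells, and which cells in the culture these rises came from was not tested. Few of the interferon genes passed the test, and with 2 arrays a group a member that did not pass is not shown to be unchanged. Of 28 members tested, 1 was higher and 2 lower, which is 10.7% against a background of 5.51% of all genes called (3.51% higher and 2% lower), and 12 members had an unadjusted p under 0.05 (limma). The median member difference was -0.33 against 0 over all genes.

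Oasl2, a 2'-5'-oligoadenylate synthetase-like protein, was at -0.65 and -0.74 with vehicle and at 0.86 and 0.79 with retinoic acid. The difference of 1.52 (SE 0.31, 2.87-fold) passed with an adjusted p of 0.039. Ddx58 was at -1.90 and -1.89 with vehicle and at -3.17 and -3.06 with retinoic acid, and it fell by 1.22 (SE 0.13, 2.34-fold, adjusted p = 0.00348). Psmb9, an immunoproteasome subunit, was at 1.58 and 1.5 against 0.58 and 0.63, and it fell by 0.94 (SE 0.12, 1.91-fold, adjusted p = 0.00636). In each of the 3 the samples of the groups did not overlap. The Oasl2 call was lost with median scaling (adjusted p = 0.087), with no detection filter (0.0798) and without any 1 of the 4 cultured samples (0.198 to 0.225), and with the replicate number as a block it was at 0.0508. Psmb9 lost its call without any 1 of them (0.0573 to 0.0734) and in 1 model of all arrays (0.199). Ddx58 kept its call without each of them (0.0348 to 0.0441), but the mean of its detected probes gave a difference of -0.57 (adjusted p = 0.0843).

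The other antigen presentation genes lay on the same side as Psmb9 without passing. Psmb8 was at 1.48 and 1.3 with vehicle and 0.56 and 0.59 with retinoic acid (-0.81, adjusted p = 0.0502). Tap1 was at -0.57 and -0.47 against -1.33 and -1.29 (-0.79, adjusted p = 0.0664). Gbp2 was at -0.84 (adjusted p = 0.0526) and Tap2 at -0.69 (adjusted p = 0.116). The class I chain H2-D1 was at -0.17 and its light chain B2m at -0.06, with an interval of -0.33 to 0.21. Over all members, the vehicle and retinoic acid samples did not overlap for 24 of 28, 20 of them lower with retinoic acid. Over all genes tested, 74.2% did not overlap and 37.4% were lower. Of the members, Oasl1, Ifit1 and Rsad2 passed the detection filter only through the vehicle samples. They could only come out lower, are counted among the 20 and are no support for a fall.

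Among the transcription factors none passed: Irf1 was at -0.72, Stat2 at -0.38, Irf7 at -0.29 and Irf9 at 0.29. Oasl1, the relative of Oasl2 that holds back Irf7 translation, was at -3.88 and -5.53 with vehicle and fell below detection with retinoic acid (-6.38 and -6.71), and with an adjusted p of 0.0799 it did not pass. Ifit1 was below detection with retinoic acid too (-1.02, adjusted p = 0.103). Isg15 was at -0.63, Bst2 at -0.10, Cxcl10 at -0.25 and Usp18 at 0.79 (adjusted p = 0.104). Zbp1 and Ifi44 were not well above background in either group and were not tested. Outside the members, 1 to 2 genes per list passed, among them Jak2 at -0.69, Cmpk2 at -1.31, Trim30a at -1.07, Irgm2 at 0.78, Mavs at 0.51, Tapbpl at -0.62 and Relb at -0.75, and 0 of 7 class II genes (2 at an unadjusted p under 0.05, limma).

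All 5 groups of testis and cells shared 1 estimate of the spread, and the replicates of the knockout cells differed most. Without the knockout group, an alternative chosen after seeing the data, 14 members passed (2 higher, 12 lower), while the number of genes called over the whole array rose from 1095 to 3998. With only the 4 cultured samples in the fit it was 15 members (3 higher, 12 lower) and 7143 genes. The shares of all genes called higher and lower in these 2 fits are not given here. The counts and their directions are therefore not read as traits of the members.

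In the tubules, dnRARa and Venus were compared with each other, both arms carrying a virus. With dnRARa the retinoic acid target Cyp26a1 was lower than with Venus (-1.31, adjusted p = 0.0289), and Rara, the gene that the virus encodes in altered form, was higher (0.65, adjusted p = 0.0108). Of 26 members tested, 3 were lower and none higher, against a background of 12.2% of all genes called (8.1% higher and 4.06% lower). The 3 were Oasl2, Irf7 and Usp18.

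**Figure D3:**
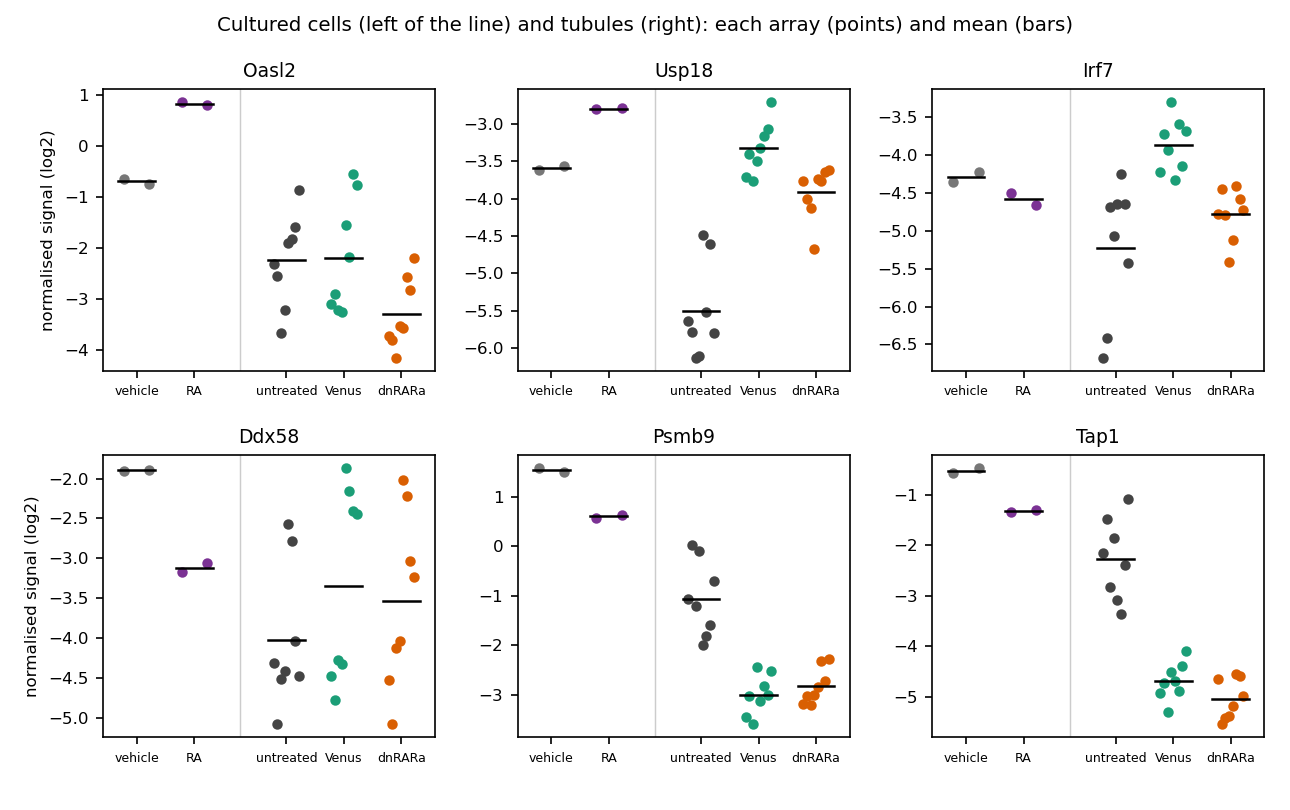
Levels of Oasl2, Usp18, Irf7, Ddx58, Psmb9 and Tap1 in cultured cells (left of the line) and in tubules of all stages (right), as log2 intensity minus the array's 75th percentile; each point is 1 array, and the bars are means. Oasl2 is higher with retinoic acid and lower with dnRARa than with Venus.

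Oasl2 ranged from -3.25 to -0.55 in the 8 Venus samples, with a median of -2.53, and from -4.15 to -2.20 in the 8 dnRARa samples, with a median of -3.55. The arms overlap because the level also changes with stage, and dnRARa was lower than Venus in 4 of 4 stages on each of the scan days they shared. The difference was -1.11 (SE 0.17, 2.16-fold, adjusted p = 0.000684), and it was -1.46 on the first of the shared scan days and -0.75 on the second. Tested stage by stage it passed at IX-XII, at -1.85 (adjusted p = 0.00522), and the test of a difference between stages did not pass (adjusted p = 0.604). Oasl2 was the 1 member that passed both with retinoic acid, where it was higher, and with dnRARa, where it was lower. Against untreated tubules it stood at 0.05 with Venus (adjusted p = 0.799) and at -1.06 with dnRARa (adjusted p = 6.23e-05).

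Irf7 ranged from -4.33 to -3.30 with Venus (median -3.83) and from -5.41 to -4.41 with dnRARa (median -4.75). It was the 1 member whose arms did not overlap, where 1.4% of all genes did not. The difference was -0.91 (SE 0.18, adjusted p = 0.00395), at -0.65 and -1.17 on the shared scan days and lower in 4 of 4 stages on each. Usp18 ranged from -3.76 to -2.71 with Venus and from -4.67 to -3.62 with dnRARa, a difference of -0.59 (SE 0.17, adjusted p = 0.037), at -0.35 and -0.82 on the shared scan days. With the 8 arrays of 1 scan day fitted alone, Oasl2 passed on neither day (adjusted p = 0.077 and 0.112), Irf7 on the first (0.0472 and 0.0598) and Usp18 on the second (0.161 and 0.0315). The Usp18 call was lost with the slide as a block (adjusted p = 0.0944), with no detection filter (0.0579) and in 14 of the 16 fits that left out 1 sample (0.0299 to 0.102 over the 16), while Oasl2 and Irf7 kept theirs in all 16. With normexp background correction of the median signal, Oasl2 alone kept its call (-0.82, adjusted p = 0.00953), while Irf7 was at -0.58 (adjusted p = 0.234) and Usp18 at -0.43 (adjusted p = 0.42).

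The other members tested did not pass between the viruses. The guanylate-binding proteins came nearest on the higher side, Gbp2 at 0.89 (adjusted p = 0.0731) and Gbp3 at 0.52 (adjusted p = 0.129), and both were higher with dnRARa in 4 of 4 stages on each shared scan day. In the injected arms the replicate number coincides with the scan day. With that number as a block in the model 6 members passed, adding Gbp2 (adjusted p = 0.0172), Gbp3 (0.0197) and Rtp4 (0.40 higher, 0.0396), while with the scan day itself as the block the 3 lower members alone passed (Gbp2 0.0524). With only the injected arrays in the fit Gbp2 (0.0157) and Gbp3 (0.0353) passed as higher. Isg15 was at 0.10 (interval -0.51 to 0.71) and Bst2 at -0.01 (interval -0.36 to 0.34). Ddx58 was at -0.19 and Psmb9 at 0.18. Of the other lists, NF-kB and cytokine genes had 5 of 9 higher with dnRARa and none lower, including Cxcl1 at 2.90, Tnf at 1.56 and Il1b at 1.37. The first of these was well above background on 5 of 8 dnRARa and 1 of 8 Venus arrays, and Tnf on 3 and 0. Cxcl1 and Tnf thus passed the detection filter only through dnRARa groups, so that they had to differ. Their calls, counted among the 5, are no support for a rise. Ccl2 was at 1.55 and Tgtp1 at 1.38. None of the 14 interferon receptors, kinases and STATs passed (6 at an unadjusted p under 0.05, limma). Macrophage markers summed to 667 to 1440 with Venus and 570 to 1020 with dnRARa, and 1 of 13 was higher.

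Within single stages few members passed between the viruses. At I-III none of 25 passed (3 at an unadjusted p under 0.05, limma), where 0.00904% of all genes did, all of them higher. At IV-VI 1 of 25 was lower, Irf7 at -1.48 (adjusted p = 0.0348), against 3.37% of all genes (1.54% higher, 1.84% lower). At VII-VIII none of 26 passed (3 at an unadjusted p under 0.05, limma), against 1.51% (0.725% higher, 0.79% lower). At IX-XII 1 of 25 was lower, Oasl2, against 4.67% (3.13% higher, 1.55% lower). With 2 arrays a group at each stage, a member that did not pass is not shown to be unchanged.

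The virus comparisons ask whether injected tubules differ from untreated ones, and slide and scan day differ along with the virus. Of 26 members tested with Venus, 11 were higher and 5 lower than in untreated tubules. That is 61.5% of the members, near the 66.9% of all genes called, of which 36.6% were higher and 30.3% lower. With dnRARa, against the same untreated samples, 14 of 25 were higher and 5 lower, against a background of 67.3% (37.8% higher and 29.4% lower). Usp18, Gbp2, Ifit3 and Isg15, among the higher members in both, passed the detection filter only through the injected groups, so that they had to differ, and their calls are no support for a rise. The comparisons share their controls and are given side by side.

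Usp18 had the largest fitted difference on the higher side with Venus. It ranged from -6.13 to -4.49 in the 8 untreated samples (median -5.70) and from -3.76 to -2.71 with Venus (median -3.36), with no overlap. The difference was 2.17 (SE 0.17, adjusted p = 5.96e-08) with Venus and 1.59 with dnRARa. Only 2 of 8 untreated arrays had it well above background, and no untreated stage group had it so on both arrays. Because of that filter, neither the gap between the arms nor the adjusted p of Usp18 is support for a rise. Gbp2 was at 1.69 with Venus and 2.58 with dnRARa, and Irf7 at 1.36 and 0.45. Ifit3 (1.2 and 1.34) and Isg15 (1.1 and 1.2) were never well above background in untreated tubules, and for Ifit3 the bound is at least 1.36-fold higher with Venus. For Isg15 no bound above 1-fold could be given with either virus.

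Bst2 ranged from -2.21 to -1.04 in untreated tubules (median -1.53), from -0.63 to 0.22 with Venus (median -0.41) and from -0.61 to -0.11 with dnRARa (median -0.39). Neither injected arm overlapped the untreated samples. It was higher than untreated by 1.22 with Venus (SE 0.16, adjusted p = 1.27e-05) and by 1.21 with dnRARa. B2m ranged from -1.02 to -0.48 untreated and from -0.44 to 0.51 with Venus, a difference of 0.76 (SE 0.13, adjusted p = 0.000148), and it was 0.89 with dnRARa. A second B2m probe, well above background on all of these arrays, gave a smaller difference, 0.16 with Venus and 0.47 with dnRARa. H2-D1 was higher by 0.61 and 0.51, and Oasl1 by 0.94 and 0.64. Stat2 was higher by 0.54 with Venus and Ddx58 by 0.68.

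Tap1 and Psmb9, the divergent pair, went down. Tap1 ranged from -3.36 to -1.08 in untreated tubules (median -2.26), from -5.30 to -4.08 with Venus (median -4.71) and from -5.54 to -4.55 with dnRARa (median -5.08). It fell by 2.41 with Venus (SE 0.22, adjusted p = 2.53e-07) and by 2.76 with dnRARa (adjusted p = 6.8e-08). Psmb9 ranged from -1.99 to 0.02 untreated and from -3.60 to -2.44 with Venus, and it fell by 1.94 (SE 0.23, adjusted p = 3.31e-06) and by 1.76 with dnRARa. For both genes the untreated and the injected samples did not overlap. Tap2 fell by 0.73 with Venus (adjusted p = 0.00763), Parp14 by 0.45 and Trim25 by 0.34, and Psmb8 was at -0.46 (adjusted p = 0.107). Over all members the Venus and untreated samples did not overlap for 7 of 26, against 15.3% of all genes.

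The rises of dim genes were then set against background correction, since a probe near the slide's background follows that background. Untreated arrays had a higher 75th percentile, at a log2 of 10.94 in the middle array, against 10.27 with Venus, so that the same signal gives a higher scaled level with Venus. Before any correction the middle median signal of Isg15 was 118 untreated, 110 with Venus and 102 with dnRARa, above a local background of 57.5 to 62.5. That of Irf7 was 167, 169 and 135, and that of Ifit3 was 130, 133 and 146. These 3 genes were within 8 signal units of each other between untreated and Venus. Usp18, at 155, 217 and 178, and Gbp2, at 152, 196 and 317, were brighter with a virus before scaling. The unscaled signal of Bst2, at 594, 928 and 992, rose as its scaled level did, and those of Psmb9, at 948, 248 and 278, and Tap1, at 441, 112 and 102, were lower with a virus. That of H2-D1, at 5290, 5220 and 5100, and of Stat2, at 543, 436 and 484, was no higher with a virus, while their scaled levels were. B2m was at 1270, 1370 and 1690 before scaling.

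With normexp correction of the median signal and its local background, 3 members were higher with Venus and 11 lower, while the all-gene median went from 0.063 to -0.322. The shares of all genes called higher and lower under this correction are not given here. This count and that with dnRARa below are therefore not read as traits of the members. Bst2 (0.80, adjusted p = 0.000197), H2-D1 (0.65, adjusted p = 0.000531) and B2m (0.61, adjusted p = 0.000868) stayed higher. Usp18 was at 0.14 (adjusted p = 0.544), Stat2 at 0.07, Oasl1 at 0.23, Gbp2 at -0.01, Irf7 at -0.22, Ddx58 at -0.29, Ifit3 at -0.50 and Isg15 at -0.62, none of them called. Tap1 at -1.68 and Psmb9 at -1.74 stayed lower. With dnRARa the same correction left 3 members higher and 13 lower. There Irf7 (-0.80, adjusted p = 0.00513), Ifit3 (-0.62, adjusted p = 0.0218) and Ddx58 (-0.54, adjusted p = 0.00661) passed as lower, the opposite of their call with the processed signal. Bst2, B2m, H2-D1, Tap1 and Psmb9 passed in the same direction under both corrections with either virus. For B2m this holds for the probe used, while its second probe was at 0.16 with Venus under the processed signal.

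**Figure D4:**
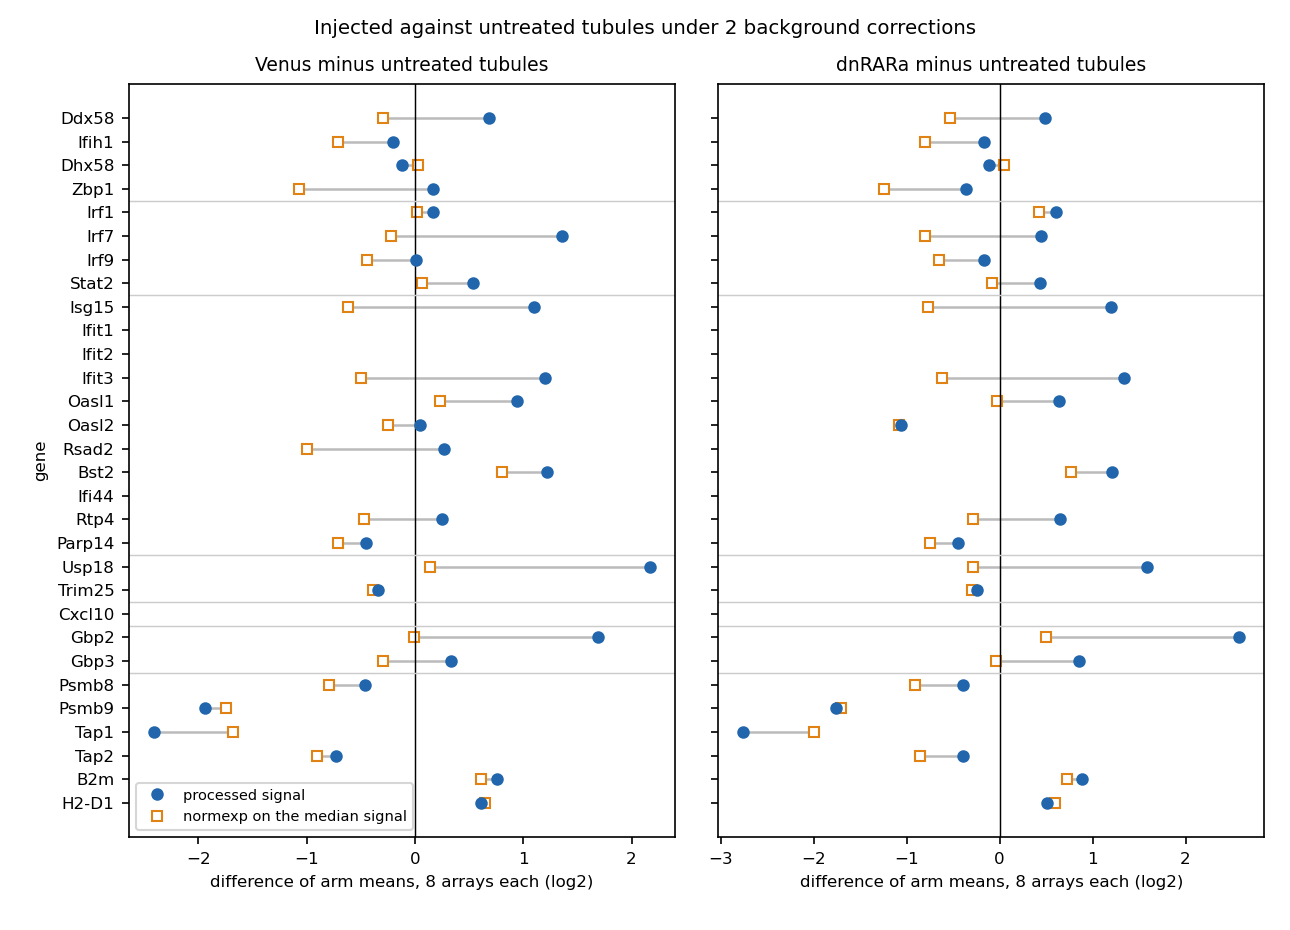
Fitted log2 difference of each member between injected and untreated tubules, Venus on the left and dnRARa on the right, with the deposited processed signal (filled circles) and with normexp correction of the median signal (open squares); members with no symbol were not tested. Bst2, B2m and H2-D1 stay to the right of 0 under both, Tap1 and Psmb9 lie far to the left, and Isg15 and Irf7 cross 0.

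Macrophage markers summed to 292 to 528 in untreated tubules and 667 to 1440 with Venus, and 10 of 13 were higher and 1 lower. Sertoli markers summed to 5090 to 8610 and 6330 to 10900, with 12 of 14 higher. Their part in the members' differences was not tested. Among lists outside the members, 12 of 28 other interferon-stimulated genes were higher and 4 lower (Ifi205 at 1.29, Trim21 at -1.48), and 4 of 8 GTPases were higher (Gbp7 at 0.87, below detection untreated). Class II genes had 3 of 7 higher (H2-DMb1 at 1.08) and 1 lower. The DNA sensor Cgas was at -1.16, and Trex1, the exonuclease that removes cytosolic DNA, at 1.23. These counts hold for the deposited processed signal.

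Stage by stage, 9 of 25 members passed with Venus at I-III (5 higher, 4 lower), where 43.1% of all genes did (26.2% higher, 16.8% lower). At IV-VI it was 11 of 25 (8 higher, 3 lower) against 43.3% (24.5% and 18.8%), at VII-VIII 7 of 26 (6 higher, 1 lower) against 37.6% (19.3% and 18.3%), and at IX-XII 13 of 25 (10 higher, 3 lower) against 41.9% (21.7% and 20.2%). Usp18, Bst2 and Oasl1 were higher and Tap1 lower at each of the 4 stages. At each stage Usp18, Gbp2, Ifit3 and Isg15 passed the detection filter only through the Venus samples. Any calls of theirs, which are part of these counts, are no support for a rise. Usp18 differed by 1.75 to 2.49, Bst2 by 1.01 to 1.29, and Tap1 by -3.01 to -1.57. Irf7 was higher by 2.57 at I-III, where it was below detection untreated, by 1.26 at IV-VI and by 1.12 at IX-XII. At I-III and IX-XII it too passed the detection filter only through the Venus samples. Its calls at those stages are no support for a rise, and the difference at I-III rests on a floor.

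Whether the effect of Venus depends on stage was tested as an interaction. It passed for 1 of 26 members, Ddx58, against 2.71% of all genes. The difference from untreated was 0.06 at I-III, 0.16 at IV-VI, 0.66 at VII-VIII and 1.82 at IX-XII (adjusted p = 0.0254). At IX-XII the untreated samples were at -4.03 and -4.47 and the Venus samples at -2.41 and -2.44. The probe was well above background on 1 of those 2 untreated arrays, so this difference rests in part on a floor. The call was lost with the mean of the detected probes (adjusted p = 0.505), and leaving out single samples moved the adjusted p between 0.00513 and 0.119. For dnRARa against Venus, 0 of 26 members passed (0 at an unadjusted p under 0.05, limma), against 0.769% of all genes.

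Some members differed among the stages of the seminiferous cycle in every arm. In untreated tubules 11 of 21 members passed the test among the 4 stage groups, against 69.1% of all genes. In the Venus arm 7 of 26 passed (54% of all genes), and in the dnRARa arm 7 of 25 (55.2%). Untreated stages lay in part on different slides, while each injected slide held all 4 stages. Ddx58, Dhx58, Oasl2, Parp14 and Zbp1 passed in all 3 arms.

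Zbp1 had the widest swing. In untreated tubules it was at -3.73 and -4.30 at I-III, -7.10 and -5.71 at IV-VI, -7.57 and -7.11 at VII-VIII and -2.10 and -1.91 at IX-XII. The range of 5.33 passed with an adjusted p of 3.72e-06, and since IV-VI and VII-VIII were not well above background it rests on a floor. In the injected arms, where all stages shared slides, IX-XII was again the highest stage, at -3.41 and -2.93 with Venus and -3.32 and -2.68 with dnRARa, and the ranges were 2.67 and 3.6. Dhx58 was highest at IX-XII and lowest at VII-VIII in the 3 arms, at means of 3.04 and 1.43 untreated, 2.85 and 1.47 with Venus and 2.99 and 1.73 with dnRARa.

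By the probe used, Ddx58 peaked at VII-VIII in every arm. Untreated it was at -2.57 and -2.78 there, against -4.31 and -5.08 at I-III, -4.51 and -4.41 at IV-VI and -4.03 and -4.47 at IX-XII (range 2.02). At each of the untreated stages other than VII-VIII the probe was well above background on 1 of 2 arrays. The untreated range thus rests in part on a floor. With Venus Ddx58 was at -1.87 and -2.16 at VII-VIII (range 2.61), and with dnRARa at -2.02 and -2.22 (range 2.68). A dimmer probe of the gene was well above background on both untreated arrays at VII-VIII, with a mean of -3.63. It was so on none at the other untreated stages. With Venus this dimmer probe was nearly level between VII-VIII and IX-XII, at means of -3.71 and -3.77, where the probe used was at -2.02 and -2.43. With dnRARa the dimmer probe was at -3.58 and -4.43 at these stages. Oasl2 was highest at IX-XII in every arm, at means of -1.22 untreated, -0.66 with Venus and -2.51 with dnRARa, and lowest at IV-VI, at -3.44, -3.23 and -3.84. Parp14, an ADP-ribosyltransferase, was highest at IX-XII as well, at -1.90, -2.12 and -2.09.

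Irf7 passed in untreated tubules, where its range was 2.10, and did not pass in the injected arms. It was at -6.68 and -6.41 at I-III on the untreated arrays, below detection. Tap1 (range 1.49), Psmb9 (1.38), Trim25 (1.02), Irf9 (0.73) and Oasl1 (0.73) passed untreated, and of these Trim25 passed with Venus too (0.96). H2-D1 passed in both injected arms, at ranges of 0.74 and 0.89, and B2m in the dnRARa arm at 1.04.

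**Figure D5:**
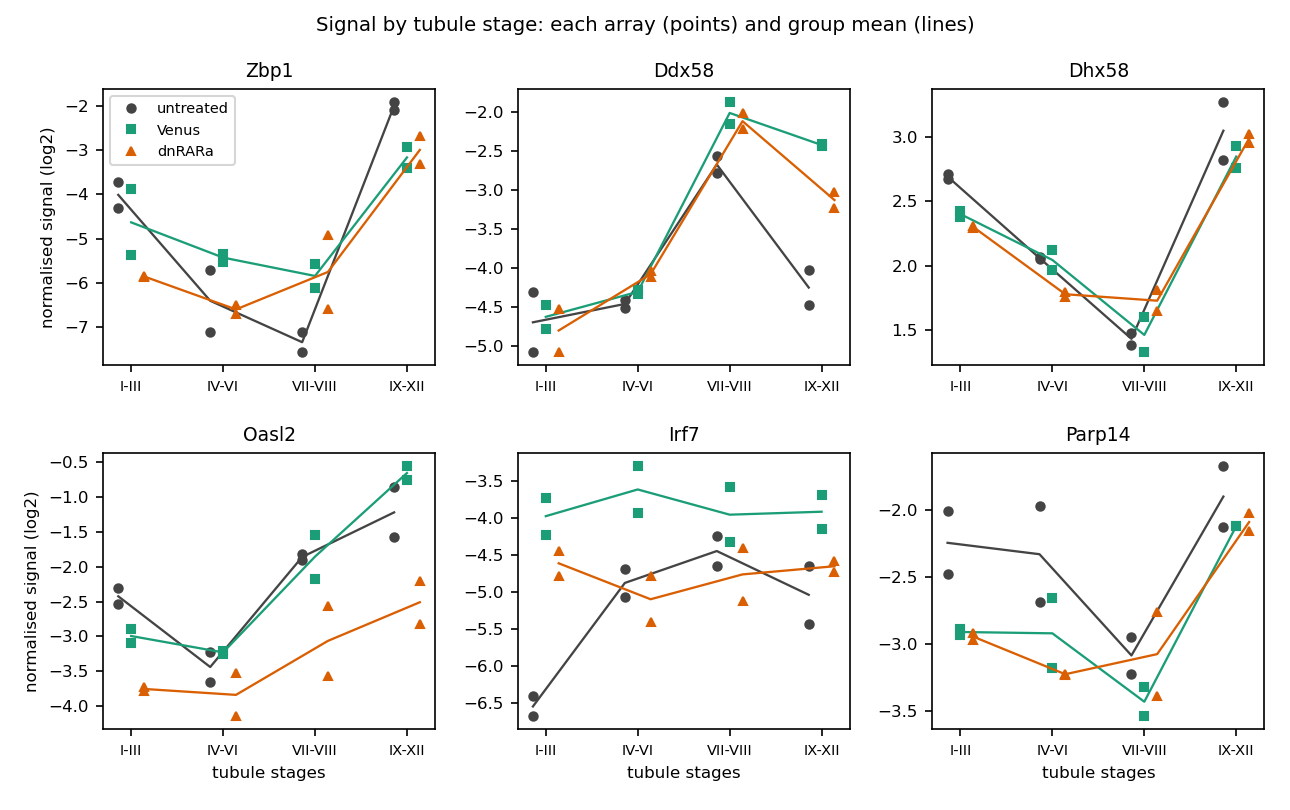
Levels of Zbp1, Ddx58, Dhx58, Oasl2, Irf7 and Parp14 at the 4 stage groups in untreated (circles), Venus (squares) and dnRARa (triangles) tubules, as log2 intensity minus the array's 75th percentile; symbols are arrays and lines join group means. Zbp1, Dhx58, Oasl2 and Parp14 are highest at IX-XII in every arm, and Ddx58 at VII-VIII.

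Nanos3 is needed for germ cells to survive, and sorted cells from Nanos3 knockout testes were compared with the sorted wild-type cells. The Nanos3 probe was below detection on both knockout arrays (-3.31 against wild type, adjusted p = 0.000319). Whether it lies in the deleted part is not given in the sources used here. Spermatid markers summed to 45.1 to 55.9. Of 30 members tested, 7 were higher and none lower, against 50.7% of all genes called (29.2% higher and 21.5% lower). Oasl2 was at -0.21 and 0.06 in wild type and at 0.98 and 2.06 in the knockout, a difference of 1.60 (SE 0.32, adjusted p = 0.00544). Gbp2 was higher by 1.29, Parp14 by 1.22, Gbp3 by 0.95, Irf9 by 0.83, Psmb8 by 0.74 and Ifih1 by 0.48.

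The knockout replicates differed from each other in several members. Zbp1 was at -3.75 in the first and -0.84 in the second, Ifit3 at -0.45 and 1.24, and Rtp4 at 1.29 and 2.92. Leaving out single samples moved the count of members past the threshold, and the number of genes called over the whole array moved as well. Macrophage markers were higher on 12 of 14, with a summed level of 19900 to 46000 against 3580 to 7330, and class II genes on 7 of 7, with H2-DMb1 at 2.91. Their part in the members' differences was not tested, and slide and genotype cannot be told apart.

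Cultured cells with vehicle had lower levels of most members than sorted cells. Of 30 tested, 19 were lower and 3 higher, where 42.1% of all genes were lower and 32.8% higher (74.8% in all). The median member difference was -1.11, against -0.18 over all genes. Dhx58 was at 1.75 and 1.64 in sorted cells and -3.54 and -3.46 in culture, and it fell by 5.20 (SE 0.27, adjusted p = 4.87e-06). Zbp1, at -4.28 and -4.01, was below detection in culture, at least 5.21-fold lower, and Ifi44, below detection there too, was at least 5.1-fold lower. Both passed the detection filter only through the sorted cells, so that they could only come out lower. Ifit1 fell by 3.28, Rsad2 by 3.07 and Ifit3 by 2.87. Ifit2 went the other way, from -4.26 and -5.23 to -1.09 and -1.15 (3.63, SE 0.50, adjusted p = 0.000488), as did Tap1 (1.23) and Gbp2 (1.00).

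Ifih1, Irf1, Psmb8, Ddx58 and H2-D1 overlapped between sorted and cultured cells and did not pass. With median scaling in place of the 75th percentile the split was 8 higher and 12 lower, and the median over all genes rose to 0.747. All 9 Leydig markers (median -8.06), all 10 endothelial markers and 11 of 13 macrophage markers were lower in culture, and 8 of 14 Sertoli markers were higher and 3 lower. Their part was not tested, and slide, scan day and culture cannot be told apart.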

How the data were processed

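Per the submitters' processing notes, the authors extracted the arrays with Agilent Feature Extraction 9.5 (9.5.3.1 per the file headers). The deposited values are spot intensity per array, and the series table holds the same processed intensity. Total RNA (0.20 µg) was labelled with Cy3, per the labels. Control spots and outlier flags were left out, and spots of 1 probe were averaged, giving 41174 probes. Symbols came from the probe accessions through RefSeq. The level is the log2 of that signal with the 75th percentile of the array subtracted. Whether a spot was well above background is the scanner software's call, and the files give no depth; the number of arrays limits the precision.

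Differences were tested two-sided with limma 3.58.1 in R 4.3.3. The 10 testis and cell arrays (5 residual degrees of freedom) and the 24 tubule arrays (12) formed separate models. A gene was tested if, in 1 or more of the groups compared, both arrays had its probe well above background, and p-values were adjusted by Benjamini-Hochberg over all genes tested, at a threshold of 0.05. Members and gene lists were chosen with earlier results of these data known. All members are accounted for; full values went to up to 6 members with the largest called rises and falls in a comparison and, in the sort, retinoic acid and Venus comparisons, to Bst2, B2m, Oasl2, Ddx58, Irf7, Isg15, Ifit1, Cxcl10, Stat2, Psmb8, Tap1 and H2-K1 (the last not analysed here). From each other list genes among the 3 with the smallest adjusted p were named, and Nanos3, Rara, Stra8, Cyp26a1 and Dhrs3 served as checks along with Rarb. The same code was tested on simulated data. The replicates are duplicates by the design text, and whether each came from 1 animal is not given in the sources used here. Alternatives covered scaling, background correction, detection filters, probe choice, samples in the fit, blocks and leaving out samples. The labels do not tell whether replicate numbers pair samples, and deviations of same-numbered samples correlated at -0.09 to 0.30, so no pairing was used in the main models; in the injected arms the number coincides with the scan day in the file headers.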

Additional observations from a re-analysis of the deposited data

Results flagged for a closer look

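The effect of Venus on Ddx58, the RIG-I gene, differed among the stage groups by the test of the interaction (adjusted p = 0.0254, limma). The difference from untreated tubules was 0.06 on the log2 scale at I-III, 0.16 at IV-VI, 0.66 at VII-VIII and 1.82 at IX-XII. Venus and untreated arrays lay on different slides, and the mean of the detected probes of the gene gave an adjusted p of 0.505. At IX-XII the probe used was well above background on 1 of the 2 untreated arrays. Groups of 2 arrays are too small for a check of single outlying samples.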

How the results depend on the processing

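Counts below are members past the threshold, and the cause of each move was not tested. The shares of all genes called under each setting are not given here. The counts and their moves are therefore not read as traits of the members. Normexp on the median signal gave 5 in the retinoic acid comparison and 1 for dnRARa against Venus. Median scaling gave 17 in the knockout comparison, all higher, as the all-gene median went from 0.128 to 0.69. Fitting only the arrays compared gave 2 in the knockout comparison, 15 with retinoic acid, 5 for dnRARa against Venus and 5 among untreated stages. Without the knockout group in the model, chosen after seeing the data, retinoic acid gave 14. Requiring detection on every array gave 10 for Venus and 12 for dnRARa against untreated. A 2-fold minimum gave 3 for the knockout, 8 for Venus, 8 for dnRARa against untreated and 1 for dnRARa against Venus. The stage test gave 7 in the Venus arm and 7 in the dnRARa arm. Venus by stage gave 0 under median scaling, normexp, no filter, detection on every array, the mean of probes and only the arrays compared.

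With the replicate number as a block, which the labels do not call a pairing but which coincides with the scan day in the injected arms, dnRARa against Venus gave 6 (3 higher, 3 lower), retinoic acid 2 and the sort 26. Within the shared scan days, dnRARa against Venus gave 3 members on each, of which 1 on each (Irf7, then Usp18) was among the 3 called over both days. Slide and scan-day blocks could not be fitted for the knockout and culture comparisons, where each group has slides of its own.

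Leaving out 1 sample at a time gave 25 to 26 members in the sort, 7 to 17 in the knockout, 20 to 21 in culture, 1 to 2 with retinoic acid, 16 to 18 for Venus, 16 to 19 for dnRARa against untreated, 2 to 4 for dnRARa against Venus, 7 to 12 among stages (7 without untreated VII-VIII replicate 1), 0 to 3 for Venus by stage and 0 to 1 for dnRARa by stage. The 3 came without untreated IX-XII replicate 1, and 0 without untreated IX-XII replicate 2, Venus I-III or IV-VI replicate 2, or either Venus IX-XII replicate. A lone sample is then assumed to vary like the other groups. The number of genes called over the whole array moved in these fits as well.

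Signs turned for these members. For Venus, normexp gave Ddx58 -0.29, Gbp2 -0.01, Ifit3 -0.50, Irf7 -0.22 and Isg15 -0.62, and the mean of probes gave Ddx58 -0.34. For dnRARa against untreated, normexp gave Ddx58 -0.54, Gbp3 -0.04, Ifit3 -0.62, Irf7 -0.80, Isg15 -0.77, Oasl1 -0.03, Rtp4 -0.29, Stat2 -0.08 and Usp18 -0.29, and the mean of probes Ddx58 -0.25. In culture, median scaling gave B2m 0.15, Irf9 0.45 and Psmb9 0.33; it shifts every gene alike, and the all-gene median went from -0.18 to 0.747. Under normexp that median went from 0.063 to -0.322 for Venus and from 0.077 to -0.33 for dnRARa against untreated, so that relative to it Ddx58 (0.03), Gbp2 (0.31) and Irf7 (0.10) for Venus, and Gbp3 (0.29), Oasl1 (0.30), Rtp4 (0.04), Stat2 (0.25) and Usp18 (0.04) for dnRARa, did not turn.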
